A study of Mus musculus with 8 samples.

Results

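RNA sequencing (RNA-seq) of hematopoietic cells cultured with or without red blood cells (RBCs) was examined here for Trp53, which encodes the mouse p53 protein, and 9 well-established p53 target genes. The 10 genes were chosen by name, with earlier results of these data known. All 10 were among the 24346 genes listed, and all 10 were among the 12003 genes that reached a FPKM value (fragments scaled to transcript length and library size) of 1 in at least 2 libraries and were tested. The targets were Mdm2, Cdkn1a, Ccng1, Phlda3, Sesn2, Zmat3, Eda2r, Trp53inp1 and Aen.

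The cells came from the bone marrow of wild-type mice. Hematopoietic stem cells (HSCs) carried CD150 but not CD48 within the LSK gate, and LSK cells were all cells of that gate (Lin-, Sca-1+ and c-Kit+), which therefore also contains HSCs. Each population was cultured for 1 day without RBCs or with RBCs, which gave 4 groups of 2 libraries and 8 libraries in all. All groups shared a serum-free medium with thrombopoietin and stem cell factor. The RBCs were mouse blood cells passed through a leukocyte filter and gamma-irradiated. After culture, every sample was hemolyzed and sorted for CD45+ cells. No source used here says whether the 2 libraries of a group came from separate animals or cultures, so p-values cover the spread between these libraries, which may be technical. The study used adult mice of either sex.

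p53 is a transcription factor that is held at a low protein level by the ubiquitin ligase Mdm2 and is stabilised after DNA damage and other stress. It binds a motif of paired half-sites near its target genes and raises their transcripts, which act in cell cycle arrest, apoptosis, DNA repair and metabolism, and Mdm2 itself is a target, which closes a feedback loop. In the hematopoietic system, p53 is known to take part in HSC quiescence and in the response of HSCs to radiation. Because much of its control is on the protein, the Trp53 transcript is no measure of p53 activity.

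Promoter windows from 250 bases before to 50 bases after a start site were read from RefSeq (GRCm38.p6, which is the mm10 build) for 8 of the 10 genes. No window was matched for Zmat3 and Trp53inp1. The p53 half-site motif, searched by its 10 letters with the ambiguity codes of the consensus, is its own reverse complement, so that both strands were covered. It occurred in 8.36% of 32851 windows, and 5 of the 8 genes had it in a window (Trp53, Mdm2, Cdkn1a, Ccng1 and Aen). A pair of half-sites side by side with at most 1 mismatch in 20 letters occurred in 29 windows (0.0883%), among them those of Cdkn1a and Ccng1. The pair began 51 bases before one of 2 start sites of Cdkn1a (chr17:29090928-29090947, + strand) and 195 bases before the start site of Ccng1 (chr11:40755462-40755481, - strand). The 250 bases before each of these start sites are shown because they hold these pairs, which are in capitals. They are chr17:29090729-29090978 for Cdkn1a and chr11:40755287-40755536 for Ccng1, each 5′ to 3′ on the strand of the gene.
Cdkn1a: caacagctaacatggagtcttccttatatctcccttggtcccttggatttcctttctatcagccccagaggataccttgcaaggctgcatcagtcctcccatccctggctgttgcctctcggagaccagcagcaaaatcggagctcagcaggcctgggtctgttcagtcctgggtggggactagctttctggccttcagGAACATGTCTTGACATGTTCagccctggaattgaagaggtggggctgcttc
Ccng1: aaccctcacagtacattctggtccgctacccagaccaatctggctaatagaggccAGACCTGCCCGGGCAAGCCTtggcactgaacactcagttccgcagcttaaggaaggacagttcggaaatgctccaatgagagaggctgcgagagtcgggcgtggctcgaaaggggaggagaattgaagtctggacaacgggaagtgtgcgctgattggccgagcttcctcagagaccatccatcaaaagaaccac
Single half-sites lay 186 bases before the start site of Mdm2 and 75 bases before that of Trp53. The stretches chr10:117710925-117710954 (- strand) and chr11:69580274-69580303 (+ strand) are shown with the half-site in capitals, for comparison with the paired form.
Mdm2: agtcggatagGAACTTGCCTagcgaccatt
Trp53: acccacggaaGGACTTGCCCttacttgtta
By GENCODE (GRCm38), Trp53 spans chr11:69580359-69591873, Cdkn1a chr17:29090976-29100727 and Sesn2 chr4:132492032-132510501. Cdkn1a overlaps an annotated gene on the opposite strand and Sesn2 one on its own strand, and in these unstranded libraries their reads could not be told apart. The half-site matches describe letters in the windows. They are not evidence of binding, and known p53 sites can lie in introns or further upstream.

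The sorted populations were checked against their markers. The summed FPKM of 7 HSC markers was 328 to 394 in the 4 HSC libraries and 226 to 244 in the 4 LSK libraries, and all 7 were lower in LSK cells at an adjusted p under 0.05. Within HSCs this sum went from 381 and 394 in cells alone to 328 and 330 in coculture, where 1 of the 7 was lower. Of 5 LSK genes, Flt3, Cd48, Cd34 and Kit were higher in LSK cells and Ly6a was lower, and upon coculture of HSCs 1 of the 5 was higher and 2 were lower. Neutrophil genes moved with both comparisons. The sum of 10 listed neutrophil genes was 8.54 and 10.6 in HSCs alone, 46.4 and 254 in HSCs cocultured with RBCs, 129 and 221 in LSK cells alone, and 366 and 572 in LSK cells cocultured with RBCs. The sum of 6 monocyte or macrophage genes was 4.08 and 8.05 in HSCs alone and 13.6 and 16.6 in cocultured HSCs. In LSK cells it was 26.2 and 32.6 alone and 89.0 and 102 in coculture. Of its 3 tested genes, 1 was higher upon coculture of HSCs and 2 upon coculture of LSK cells (adjusted p under 0.05 by limma). The sum of 6 platelet genes was 199 to 240 in HSC libraries, 115 and 211 in LSK cells alone and 92.7 and 106 in cocultured LSK cells, with 3 of 6 lower in LSK cells, and 1 was higher in HSCs and 1 lower in LSK cells upon coculture. The summed level of 8 listed red blood cell genes did not separate cultures with and without RBCs. It was 282 and 338 in HSCs alone, 300 and 308 in cocultured HSCs, 111 and 177 in LSK cells alone and 119 and 184 in cocultured LSK cells. Its globin genes went in different directions upon coculture of HSCs, with Hba-a1 at 0.0826 and 1.40 alone and 88.7 and 116 in coculture, and Hbb-b2 at 278.5 and 335 alone and 120 and 158.5 in coculture. These near-identical globin copies share reads, and their single values are uncertain. Of 6 tested red blood cell genes, 3 were higher upon coculture of HSCs and 1 of LSK cells, and none was lower at an adjusted p under 0.05. Slc4a1 was at 0 in every library but 1. Sums of 5 B cell genes were 34.7 to 51.6 and of 4 listed T cell genes 10.2 to 15.9 over all libraries. The part of other cells and of carried-over RNA in the values below was not tested. In bulk RNA, fewer cells of a type and less RNA per cell cannot be told apart. Relative sequencing depth, read from the steps of low FPKM values, differed between libraries from 0.886 to 1.13.

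Trp53 itself was one of the more abundant transcripts. Its mean FPKM over the 8 libraries exceeded that of 94.0% of the tested genes. It was at 171 and 178.5 FPKM in HSCs alone and at 154 and 162 in HSCs cocultured with RBCs. In LSK cells it was at 180 and 176 without RBCs and at 158 and 152 with RBCs. Thus, HSCs and LSK cells covered the same range. In both populations the 2 libraries with RBCs lay below the 2 without. This held for 21.8% of all tested genes in HSCs and for 26.4% in LSK cells. Mdm2, which marks p53 for degradation, was at 38.4 and 36.0 FPKM in HSCs alone and at 35.9 and 34.2 in cocultured HSCs. Its values in LSK cells were 52.9 and 55.9 without RBCs and 60.7 and 55.5 with RBCs. Thus all 4 LSK libraries were above all 4 HSC libraries, as for 13.6% of all tested genes.

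Ccng1 encodes cyclin G1, which brings a phosphatase to Mdm2. It was at 58.9 and 64.5 FPKM in HSCs alone, 52.4 and 49.5 in cocultured HSCs, 78.2 and 90.0 in LSK cells alone and 88.0 and 88.9 in cocultured LSK cells. Every LSK library was above every HSC library, as for 13.6% of all tested genes. Cdkn1a encodes the cyclin-dependent kinase inhibitor p21, the main effector of p53-dependent arrest in G1. It was at 88.4 and 96.6 FPKM in HSCs alone and at 99.7 and 87.6 in cocultured HSCs, against 169 and 172 in LSK cells alone and 190 and 184 in cocultured LSK cells. All LSK values of Cdkn1a were above all its HSC values, with a gap from 99.7 to 169 FPKM. Of all tested genes, 13.6% were separated in this direction.

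Phlda3 encodes a small protein that competes with the kinase Akt for membrane lipids. It was at 18.4 and 22.7 FPKM in HSCs alone, 14.9 and 15.4 in cocultured HSCs, 28.0 and 31.7 in LSK cells alone and 33.2 and 31.2 in cocultured LSK cells. Sesn2, a sestrin that restrains mTORC1 when amino acids or energy run low, was at 17.7 and 16.4 FPKM in HSCs alone and 13.8 and 15.1 in cocultured HSCs. In LSK cells Sesn2 was at 21.7 and 21.4 FPKM without RBCs and at 23.4 and 22.1 with RBCs. For both genes, all LSK values were above all HSC values, as for 13.6% of all tested genes. Both cocultured HSC libraries lay below both libraries of HSCs alone, as for 21.8% of all tested genes.

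Trp53inp1 encodes a stress-induced protein with roles in autophagy and in p53 phosphorylation. Its FPKM was 5.36 and 5.07 in HSCs alone, 4.74 and 3.68 in cocultured HSCs, 9.19 and 12.6 in LSK cells alone, and 15.7 and 13.5 in cocultured LSK cells. The lowest value was in HSCs cocultured with RBCs and the highest in LSK cells cocultured with RBCs. Zmat3, an RNA-binding zinc finger protein, was the lowest of the 10 genes, at 1.08 and 2.002 FPKM in HSCs alone, 1.52 and 1.45 in cocultured HSCs, 2.44 and 2.24 in LSK cells alone, and 2.66 and 2.68 in cocultured LSK cells. The steps of its FPKM values corresponded to 121 to 251 reads per library. All 4 LSK libraries were above all 4 HSC libraries, as for 13.6% of all tested genes.

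Eda2r, a receptor of the tumor necrosis factor family, was at 3.40 and 5.09 FPKM in HSCs alone, 3.91 and 3.41 in cocultured HSCs, 4.69 and 7.08 in LSK cells alone and 5.69 and 5.71 in cocultured LSK cells. HSC and LSK libraries overlapped. Aen encodes a nuclease that acts in apoptosis. It was at 43.6 and 43.2 FPKM in HSCs alone, 46.6 and 38.9 in cocultured HSCs, 52.1 and 60.01 in LSK cells alone and 42.3 and 47.7 in cocultured LSK cells. The cocultured LSK libraries fell within or just above the range of the HSC libraries.

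**Figure D1:**
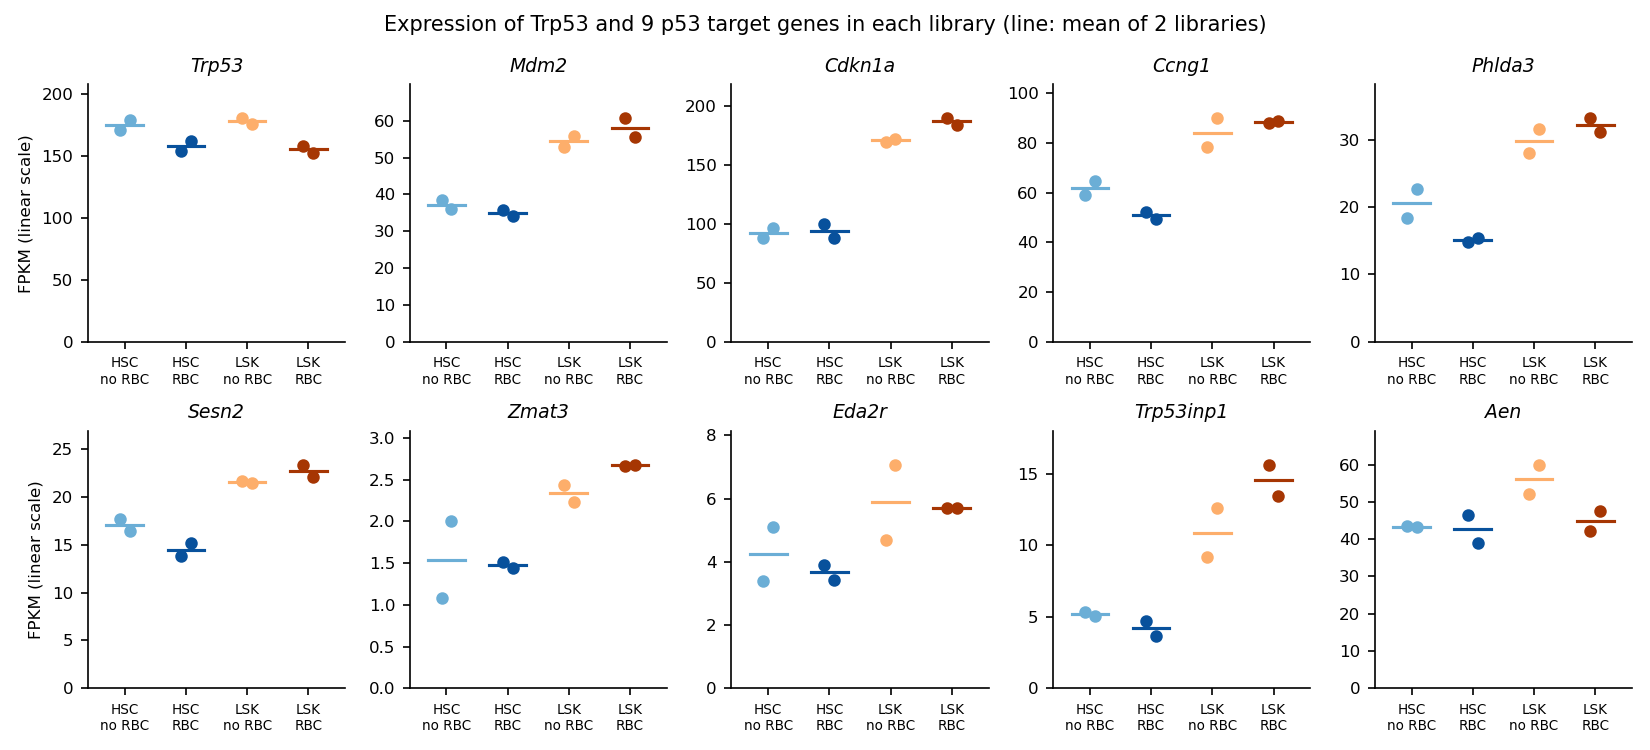
FPKM (linear scale) of Trp53 and the 9 targets in the 8 libraries, with 1 point per library and a line at the mean of the 2 libraries of each group. For Cdkn1a the 4 LSK libraries sit between 169 and 190 and the 4 HSC libraries between 87.6 and 99.7. Such a separation, with LSK cells higher, was seen for 13.6% of all tested genes. For Trp53 the populations cover the same range.

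FPKM is scaled to transcript length, and the levels of the 10 genes could therefore be ordered. In HSCs (mean ± SD, n = 4 libraries), Trp53 (166 ± 10.7 FPKM) was followed by Cdkn1a (93.1 ± 5.98), Ccng1 (56.3 ± 6.72), Aen (43.1 ± 3.16) and Mdm2 (36.1 ± 1.74). Lower were Phlda3 (17.8 ± 3.595 FPKM) and Sesn2 (15.8 ± 1.67), whose ranges overlapped, then Trp53inp1 (4.72 ± 0.734) and Eda2r (3.95 ± 0.795), whose ranges overlapped too, and Zmat3 (1.51 ± 0.379). In LSK cells (n = 4 libraries) the order changed at the top. Cdkn1a (179 ± 9.63 FPKM) reached the level of Trp53 (167 ± 13.5), and these overlapped. Ccng1 (86.3 ± 5.44 FPKM) came next, then Mdm2 (56.3 ± 3.28) and Aen (50.5 ± 7.49), which overlapped, Phlda3 (31.0 ± 2.18), Sesn2 (22.1 ± 0.869), Trp53inp1 (12.7 ± 2.69), Eda2r (5.79 ± 0.980) and Zmat3 (2.51 ± 0.211). The SDs are over both culture conditions.

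Whether RBCs altered these transcripts was asked first in HSCs. None of the 10 genes passed an adjusted p of 0.05, with or without a 2-fold threshold (limma, Benjamini-Hochberg over 12003 genes). Of all tested genes, 0.633% rose and 0.142% fell by at least 2-fold, and without the fold threshold 1.57% rose and 0.958% fell. The members' log2 fold changes had a median of -0.15, against -0.0062 over all tested genes, and 9 of 10 were below 0. The largest was that of Phlda3, at -0.41 ± 0.11 (SE; n = 2 and 2 libraries; adjusted p = 0.118 by limma; 95% interval -0.67 to -0.16). Ccng1 followed at -0.27 ± 0.086 (adjusted p = 0.171 by limma). At an unadjusted p under 0.05, 4 genes were lower (Phlda3, Ccng1, Trp53 and Sesn2), against 13.7% of all tested genes in either direction. For 6 genes, those 4 with Mdm2 and Trp53inp1, both cocultured libraries lay below both libraries without RBCs, as for 21.8% of all tested genes. No member lay above in that way, as 19.9% of all tested genes did. Cdkn1a was at 0.02 ± 0.078 on the log2 scale, with a 95% interval from -0.16 to 0.19. The others were Sesn2 at -0.22 ± 0.096, Trp53 at -0.15 ± 0.062, Trp53inp1 at -0.26 ± 0.17, Eda2r at -0.15 ± 0.21, Mdm2 at -0.08 ± 0.081, Aen at -0.03 ± 0.11 and Zmat3 at -0.01 ± 0.20.

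In LSK cells, coculture with RBCs likewise gave no call among the 10 genes (limma). Of all tested genes, 0.9% rose and 0.108% fell by at least 2-fold, and 2.32% and 1.13% without the fold threshold. The median log2 fold change of the 10 genes was 0.08, against -0.0095 over all tested genes, and 7 of 10 were above 0. Trp53inp1 had the largest positive value, 0.40 ± 0.17 (SE; n = 2 and 2 libraries; adjusted p = 0.255 by limma). Aen was at -0.31 ± 0.11 (adjusted p = 0.172 by limma) and Trp53 at -0.20 ± 0.062 (adjusted p = 0.131 by limma). The remaining values were small, with Zmat3 at 0.14 ± 0.20, Cdkn1a at 0.13 ± 0.078, Phlda3 at 0.11 ± 0.11, Mdm2 at 0.09 ± 0.081, Ccng1 at 0.08 ± 0.086, Sesn2 at 0.07 ± 0.096 and Eda2r at -0.02 ± 0.21. Trp53inp1, Aen and Trp53 were the ones at an unadjusted p under 0.05, a level that 18.6% of all tested genes reached. The libraries with and without RBCs did not overlap for Cdkn1a, Sesn2, Zmat3 and Trp53inp1, which were higher (24.2% of all tested genes), or for Trp53 and Aen, which were lower (26.4%).

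Trp53 was the one member whose 4 cocultured libraries all lay below its 4 libraries without RBCs. This was the case for 2.1% of all tested genes, and 3.13% lay above in that way, with no member among them. The mean of the RBC effects in HSCs and LSK cells was -0.17 ± 0.044 on the log2 scale (n = 4 and 4 libraries), or 0.888-fold, which missed the threshold (adjusted p = 0.0582 by limma). The means of the other members lay between -0.17 (Aen) and 0.07 (Cdkn1a and Trp53inp1), with Phlda3 at -0.15, Ccng1 at -0.10, Eda2r at -0.08, Sesn2 at -0.075, Mdm2 at 0.005 and Zmat3 at 0.06. In this mean comparison, no other member had an unadjusted p under 0.05, and 3.38% of all tested genes rose and 1.99% fell at an adjusted p under 0.05, and 0.691% and 0.0583% did so by at least 2-fold.

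The RBC effects were also compared with each other by the interaction term, the effect in HSCs minus the effect in LSK cells. No member passed (limma), as 0.05% of all tested genes did with a positive and 0.0833% with a negative term (0.0333% and 0.075% at 2-fold). The most negative terms were those of Trp53inp1, at -0.66 ± 0.24 (adjusted p = 0.314 by limma), Phlda3, at -0.52 ± 0.16 (adjusted p = 0.244 by limma), and Ccng1, at -0.35 ± 0.12 (adjusted p = 0.304 by limma). These 3 were at an unadjusted p under 0.05, as were 12.5% of all tested genes. Of the 10 terms, 8 were below 0, and their median was -0.16, against 0.0013 over all tested genes. The other terms were Sesn2 at -0.30, Mdm2 at -0.18, Zmat3 at -0.15, Eda2r at -0.13, Cdkn1a at -0.11, Trp53 at 0.05 and Aen at 0.28. For Sesn2 and Trp53inp1, both cocultured HSC libraries lay below and both cocultured LSK libraries above those without RBCs, as for 4.07% of all tested genes, and the reverse was seen for 3.72% of these and no member. The intervals were wide, with 95% bounds of -1.21 and -0.11 for Trp53inp1, and a difference between the populations was not shown.

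**Figure D2:**
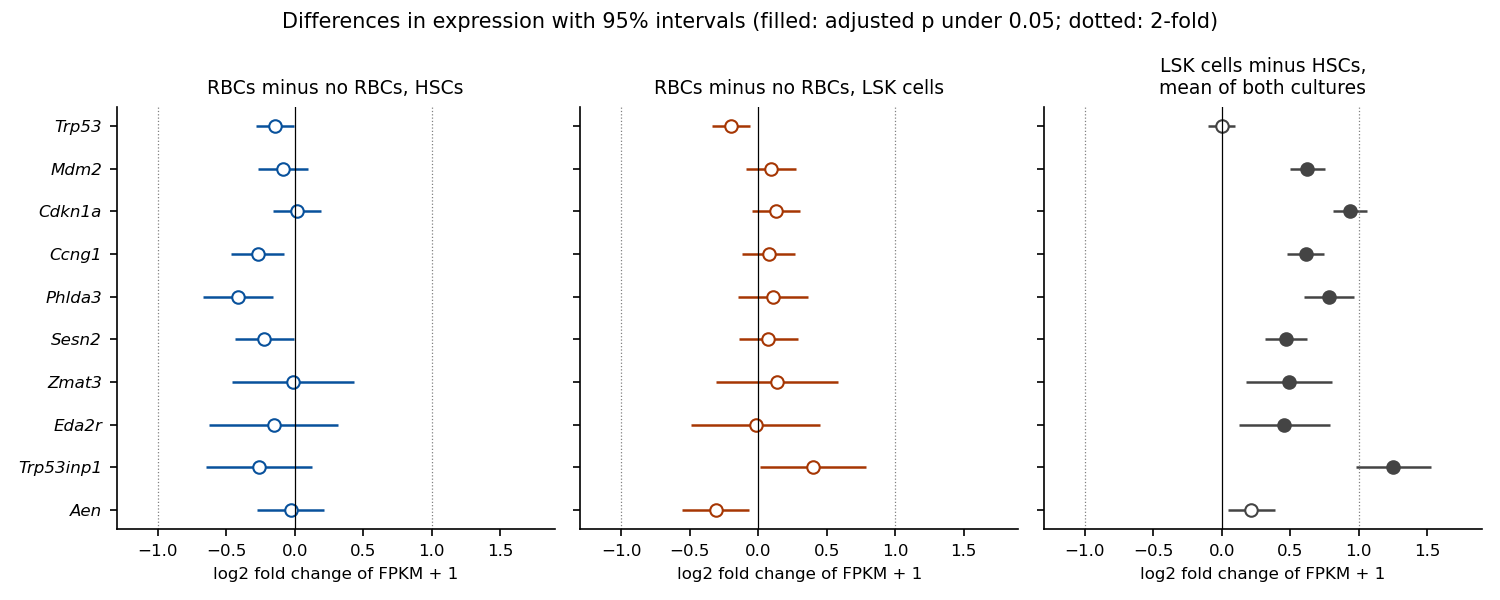
Log2 fold change of FPKM + 1 for each gene with its 95% interval, for the effect of coculture on HSCs, for that on LSK cells, and for LSK cells against HSCs, where filled points are at an adjusted p under 0.05 and dotted lines mark 2-fold. No point is filled in the RBC comparisons, and 8 of 10 are filled, all above 0, between the populations.

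LSK cells differed from HSCs in most of the targets but not in Trp53. Averaged over both culture conditions (n = 4 and 4 libraries), 8 of the 9 targets were higher in LSK cells at an adjusted p under 0.05, where 16.1% of all tested genes were higher and 16.8% lower, and no target was lower. With the 2-fold threshold, Trp53inp1 alone was called, while 1.91% of all tested genes were higher and 0.808% lower. The 10 genes had a median log2 difference of 0.55, against 0.0065 over all tested genes. For 7 targets all 4 LSK libraries were above all 4 HSC libraries, as for 13.6% of all tested genes, and the reverse held for no member and 13.7% of all tested genes.

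Trp53inp1 had the largest difference, 1.25 ± 0.12 on the log2 scale (adjusted p = 9.82e-05 by limma), and its mean FPKM was 2.70-fold higher in LSK cells. The difference of Cdkn1a was 0.93 ± 0.055 (adjusted p = 5.97e-06 by limma), just under 2-fold. It was followed by Phlda3 at 0.78 ± 0.081, Mdm2 at 0.62 ± 0.057, Ccng1 at 0.61 ± 0.061 and Sesn2 at 0.47 ± 0.068, with adjusted p-values from 6.82e-05 to 0.000861 by limma. These 6 genes kept an adjusted p under 0.05 in all 17 alternatives with a p-value. Zmat3 (0.49 ± 0.14, adjusted p = 0.0241 by limma) and Eda2r (0.46 ± 0.15, adjusted p = 0.041 by limma) passed in 8 of 16 and 7 of 17 alternatives. Aen, at 0.22 ± 0.077, missed the threshold (adjusted p = 0.057 by limma). Trp53 had a difference of 0.0015 ± 0.044, with a 95% interval from -0.10 to 0.10. Neutrophil genes also moved with this comparison, 8 of 10 tested being higher in LSK cells at an adjusted p under 0.05, and their part in it was not tested.

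All 9 targets were numerically higher in LSK cells in each culture condition. The comparisons without and with RBCs compare different libraries, but their p-values rest on 1 estimate of the spread from all 8 libraries. Without RBCs, 5 targets were higher in LSK cells at an adjusted p under 0.05 (6.93% of all tested genes) and none was lower (7.29%). They were Cdkn1a (0.88 ± 0.078), Trp53inp1 (0.92 ± 0.17), Mdm2 (0.54 ± 0.081), Phlda3 (0.52 ± 0.11) and Ccng1 (0.44 ± 0.086). Zmat3 (0.42 ± 0.20), Eda2r (0.39 ± 0.21), Aen (0.36 ± 0.11), Sesn2 (0.32 ± 0.096) and Trp53 (0.03 ± 0.062) did not pass. No target reached 2-fold with that p-value on this scale, as 1.62% of all tested genes did upward and 1.03% downward. When replicate 2 of LSK cells alone was left out, 2 of the 5 passed, and Ccng1, Phlda3 and Trp53inp1 did not. With RBCs, 6 targets were higher (11.9% of all tested genes, with 12.5% lower), the same 5 and Sesn2 (0.62 ± 0.096). Trp53inp1 (1.58 ± 0.17) and Phlda3 (1.04 ± 0.11) were past 2-fold (2.61% of all tested genes, with 1.0% lower), and Cdkn1a was at 0.99 ± 0.078, Ccng1 at 0.78 ± 0.086 and Mdm2 at 0.71 ± 0.081. Zmat3 (0.57 ± 0.20), Eda2r (0.52 ± 0.21), Aen (0.08 ± 0.11) and Trp53 (-0.02 ± 0.062) did not pass. The median log2 difference of the 10 genes was 0.67 with RBCs and 0.43 without, against 0.0075 and 0.0085 over all tested genes. Aen (0.08 against 0.36) and Trp53 (-0.02 against 0.03) were lower with RBCs than without. Over all tested genes the differences were also wider with RBCs (5th to 95th percentile -0.61 to 0.72) than without (-0.57 to 0.58). How many of all tested genes had a larger difference with RBCs was not counted. For 8 targets without RBCs and 8 with RBCs, both LSK libraries lay above both HSC libraries (28.0% and 33.7% of all tested genes), and for none did both lie below (26.9% and 33.1%). When only the groups compared were fitted, 4 targets were higher without RBCs at an adjusted p under 0.05 by limma (533 of 12003 tested genes). With RBCs, 8 were higher in such a fit (1544 of 12003). The change of the difference upon coculture is the interaction described above, in which no member passed.

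As Trp53 did not separate the populations, each target was also expressed relative to Trp53 in the same library. Cdkn1a was at 0.517 to 0.647 of the FPKM of Trp53 in the HSC libraries and at 0.939 to 1.21 in the LSK libraries. The ratio of Mdm2 to Trp53 was 0.202 to 0.233 in HSCs and 0.293 to 0.384 in LSK cells. Trp53inp1 had ratios of 0.0228 to 0.0314 in HSCs and 0.0509 to 0.0991 in LSK cells. Ccng1, Phlda3, Sesn2 and Zmat3 were separated as well, whereas the ratios of Aen and Eda2r overlapped. Of the 12002 tested genes other than Trp53, 10% had a ratio to Trp53 that was higher in all LSK libraries than in all HSC libraries, and 12% had one that was lower, with no target among them. The ratio cancels the scaling of a library. As Trp53 was alike in both populations, the ratio separated the same 7 targets as FPKM did. It repeats that comparison and is no further support for it. It is a ratio of transcripts and gives no p53 activity.

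**Figure D3:**
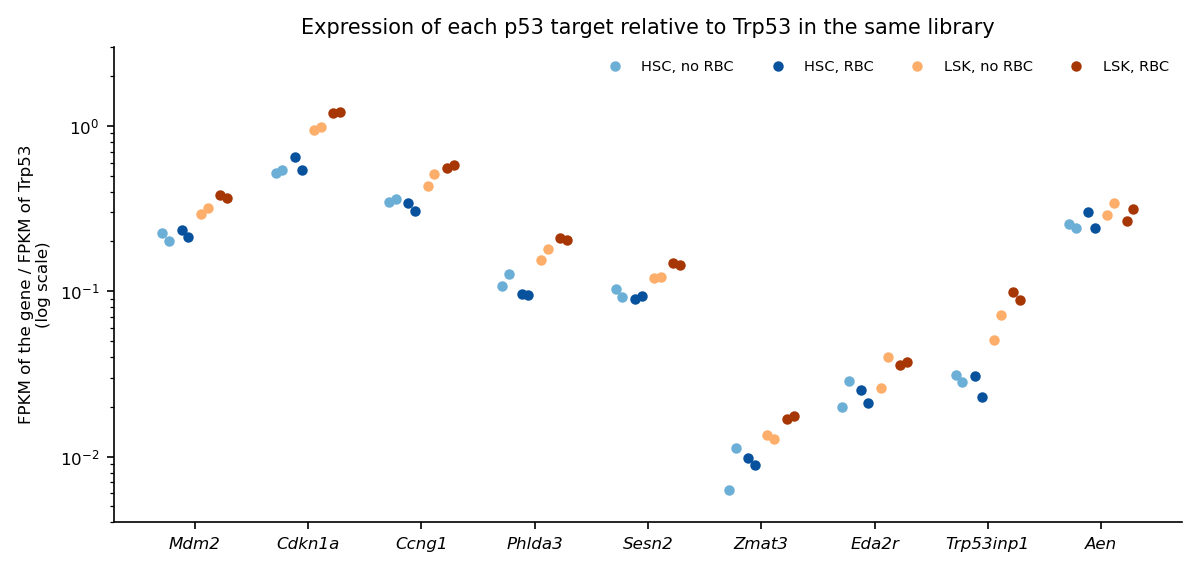
FPKM of each target divided by the FPKM of Trp53 in the same library (log scale), with 2 points for each of the 4 groups. Cdkn1a lies between 0.517 and 0.647 in HSC libraries and between 0.939 and 1.21 in LSK libraries. The populations are separated for 7 of 9 targets, the same 7 as by FPKM, against 10% of all other tested genes in that direction.

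The wider pathway was described by 6 lists of genes. They were written by name, and whether p53 controls each listed gene was not tested. Counts between populations are at an adjusted p under 0.05 over both culture conditions, a level at which 16.1% of all tested genes were higher and 16.8% lower in LSK cells. Among 15 tested regulators of p53, 2 were higher and 1 lower. The acetyltransferase Kat5 (0.40 ± 0.099) and the Mdm2 relative Mdm4 (0.31 ± 0.079) were higher in LSK cells, and the checkpoint kinase Chek1 was lower (-0.54 ± 0.11) by limma. The median difference of this list was -0.013, and neither RBC comparison gave a call in it. Cdkn2a, Trp63 and Trp73 were below the filter, and Cdkn2a was listed at 0 in all 8 libraries.

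Of 11 other genes listed as arrest targets, 6 were higher and 2 lower in LSK cells (16.1% and 16.8% of all tested genes). Their median log2 difference was 0.77. Past 2-fold were Btg2, an antiproliferative protein (1.17 ± 0.098), Gdf15, a secreted stress cytokine (1.11 ± 0.18), and Ccng2, encoding cyclin G2 (1.01 ± 0.070). Gadd45a, a DNA damage-inducible growth arrest gene, was at 0.85 ± 0.086. Psrc1 and Gtse1 were higher as well, at 0.79 and 0.77. Ndn, which encodes the growth suppressor necdin, was in contrast lower in LSK cells at -0.86 ± 0.080, as was the kinase gene Plk3 at -0.62 ± 0.11. No gene of this list was called in HSCs or in LSK cells upon coculture.

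Apoptosis targets gave 6 higher and 2 lower genes of 13 in LSK cells (16.1% and 16.8% of all tested genes), with a median of 0.39. Pmaip1, which encodes the BH3-only protein Noxa, had the largest difference of any gene in the lists, 2.23 ± 0.16 (adjusted p = 1.91e-05 by limma). It was at 2.21 and 2.83 FPKM in HSCs alone, 0.903 and 2.09 in cocultured HSCs, 7.88 and 9.51 in LSK cells alone and 20.4 and 16.8 in cocultured LSK cells. Bbc3, encoding the BH3-only protein Puma, was higher at 0.98 ± 0.093, Bid at 0.71 ± 0.061, the pore-forming Bax at 0.58 ± 0.099, the autophagy gene Dram1 at 0.91 ± 0.12, and Apaf1 at 0.45 ± 0.13. Siva1 (-0.50 ± 0.055) and Trp53i11 (-0.22 ± 0.074) were lower.

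Pmaip1 was also the one gene of the lists that was called in an RBC comparison at 2-fold. In LSK cells it rose by 1.01 ± 0.23 on the log2 scale upon coculture (adjusted p = 0.0479 by limma). The 2-fold call was lost in 14 of 18 alternatives, and an adjusted p under 0.05 in 13. The adjusted p was 0.117 to 0.23 when any of the 4 LSK libraries was left out. Perp, a membrane protein of desmosomes, was higher in cocultured LSK cells at 0.84 ± 0.15 (adjusted p = 0.0218 by limma). The antioxidant gene Gpx1 was higher at 0.45 ± 0.080 (adjusted p = 0.02 by limma). Perp passed in 12 and Gpx1 in 11 of 18 alternatives. Of all tested genes, 2.32% were higher in this comparison. In the mean of the RBC effects over both populations, 3 genes of the lists were higher at an adjusted p under 0.05 by limma (3.38% of all tested genes) and 2 were lower (1.99%), all under 2-fold. Higher were Gdf15 (0.74 ± 0.18, adjusted p = 0.0477), Perp (0.60 ± 0.11, adjusted p = 0.0138) and Gpx1 (0.35 ± 0.057, adjusted p = 0.0077). Lower were Dram1 (-0.51 ± 0.12, adjusted p = 0.0466) and Xpc (-0.34 ± 0.080, adjusted p = 0.0424). Gpx1 passed in 15, Perp in 12, Xpc in 7 and Gdf15 in 3 of 17 alternatives, and Dram1 in 4 of 16.

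Repair and nucleotide supply genes gave 3 higher and 2 lower of 10 in LSK cells (16.1% and 16.8% of all tested genes), with a median of 0.076. The nucleotide excision repair genes Ercc5 (0.76 ± 0.11) and Xpc (0.64 ± 0.080) and the repair gene Mgmt (0.51 ± 0.11) were higher. Pcna, the sliding clamp of replication, was lower at -0.45 ± 0.047, and the translesion polymerase gene Polh was lower at -0.32 ± 0.11. Among 11 genes listed as metabolic and stress targets, Trp53inp2 (0.89 ± 0.14) and Ddit4 (0.46 ± 0.15) were higher, none was lower, and the median was 0.045. Both were low, with at most 2.27 FPKM in any library for Trp53inp2 and 1.76 for Ddit4. Within 1 culture condition, Sesn1, a sestrin, was higher in LSK cells with RBCs (0.47 ± 0.087, adjusted p = 0.00514 by limma), and Cpt1c was lower without RBCs (-0.71 ± 0.18, adjusted p = 0.0324 by limma). The interaction of neither passed. Upon coculture, Xpc was the one repair gene with a call, in the mean over both populations given above.

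The last list held 13 cell cycle genes that p53 lowers indirectly, through p21 and the DREAM repressor complex. In LSK cells 5 were lower (Mcm5, Birc5, Ccna2, Cdk1 and Aurkb) and 2 were higher (Ccnb1 and Cdc20) than in HSCs. Of all tested genes 16.8% were lower and 16.1% higher. The median difference of the list was -0.20. Mcm5, a subunit of the replicative helicase, was at -0.81 ± 0.068, and the mitotic survivin gene Birc5 at -0.67 ± 0.12. Ccnb1, encoding cyclin B1, was at 0.45 ± 0.048 and Cdc20 at 0.32 ± 0.046. With RBCs in both cultures, 9 were lower in LSK cells (12.5% of all tested genes) and Ccnb1 was higher (11.9%). The 9 were Mcm5, Birc5, Bub1b, E2f1, Ccna2, Cdk1, Plk1, Aurkb and Ccnb2. Without RBCs, Mcm5 was lower (7.29% of all tested genes), and Ccnb1 and Cdc20 were higher (6.93%). The difference between these conditions is the interaction, in which no gene of the list passed. Of the genes named for the mean difference between populations, Ddit4 passed in 4 of 16 alternatives, Trp53i11 in 5 of 17, Polh in 9 of 17, Aurkb in 10 of 17, Apaf1 in 11 of 17, Mdm4 in 14 of 17 and Kat5 in 15 of 17, and the rest in all that gave a value.

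**Figure D4:**
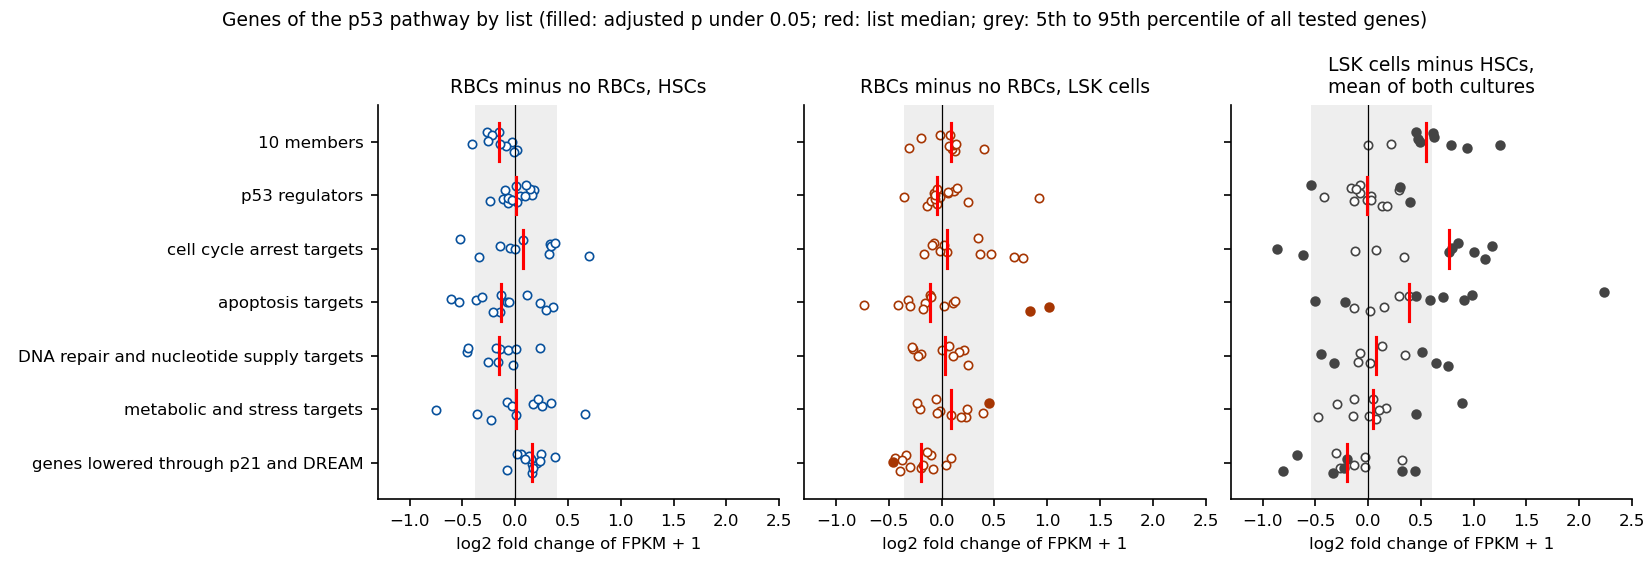
Log2 fold changes of FPKM + 1 for the 10 genes and for the genes of the 6 lists, in the RBC comparisons and between LSK cells and HSCs (filled points, adjusted p under 0.05; red lines, list medians; grey band, the 5th to the 95th percentile of all tested genes). Between populations the arrest list has a median of 0.77 and the members of 0.55, and the list lowered through p21 and DREAM of -0.20.

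Genes whose pattern over the 8 libraries came closest to those of Trp53, Cdkn1a and Mdm2 were sought among 8894 tested genes with a mean FPKM of at least 5. Likeness was the root mean square difference of log2(FPKM + 1) over the 8 libraries after each gene was centred on its own mean. Closest to Trp53 were Mecr (0.0314), Ptpmt1 (0.0364) and Txnl4a (0.0416). Closest to Cdkn1a were Parp8 (0.0729), 5430427O19Rik (0.078) and Ppcdc (0.0856), whose mean FPKM in LSK cells was 21.2, 10.2 and 42.0 against 9.88, 5.30 and 21.8 in HSCs. Closest to Mdm2 were Ninj1 (0.0615), Hmha1 (0.068) and B9d2 (0.071). None of the 10 members was among these.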

How the data were processed

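Values deposited by the authors were FPKM, listed by gene symbol in 8 libraries, made from total RNA by full-length cDNA synthesis (SMART-Seq HT) and Nextera XT libraries, a chemistry that does not mark strand. The submitters' processing notes name mm10, TopHat2 2.1.1, Bowtie2 2.2.8, SAMtools 0.1.18 and Cuffdiff 2.2.1, and the gene annotation was not given in the sources used here. Groups and replicate numbers came from the sample labels.

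Deposited FPKM values were log2-transformed after a pseudocount of 1 was added. Genes below 1 FPKM in all libraries but 1, or in all, were left out, and the 4 group means were fitted in limma 3.58.1 (R 4.3.3) with a mean-variance trend and 4 residual and 5.18 prior degrees of freedom. Differences are on this log2 scale, which understates changes of low genes. All tests were two-sided. A call needed a Benjamini-Hochberg adjusted p under 0.05 over all 12003 genes and a 2-fold change, and counts without the fold threshold are given beside it.

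The members and lists were chosen with earlier results of these data known, and no test over a list was made. The 10 members are named in every comparison. From a list, the genes called in the comparison described are named, and some that were not called are given with their adjusted p. Depth is unknown in absolute terms: 3031 of 3659 low genes (82.8%) had values at whole multiples of a step, within a tolerance of 0.02, which gave relative depth and the reads of Zmat3. Such reads are not molecules. No values from columns outside the 8 libraries were used. Sequences came from RefSeq (GRCm38.p6).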

Additional observations from a re-analysis of the deposited data

Results flagged for a closer look

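For a pair of the 10 genes, both libraries of HSCs cocultured with RBCs lay below both libraries of HSCs alone, while both libraries of LSK cells cocultured with RBCs lay above both libraries of LSK cells alone. For Sesn2 the RBC effect in HSCs minus that in LSK cells was -0.30 on the log2 scale, and its interaction term did not pass (adjusted p = 0.413 by limma). For Trp53inp1 it was -0.66, which did not pass either (adjusted p = 0.314 by limma). In each population, 2 libraries stood against 2, and 4.07% of all tested genes showed this pattern.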

How the results depend on the processing

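Absolute depth is unknown, so no counting intervals are given, and Zmat3, the lowest of the 10 genes, rested on 121 to 251 reads a library. Across 20 settings, no RBC comparison and no interaction called any of the 10 genes. Between populations, the number of targets called at 2-fold was 0 without RBCs, 1 with a pseudocount of 0.1 and 5 without the fold threshold, and it was 0 to 1 with 1 library left out. With RBCs it was 2, 1 with every library scaled to the same median and 6 without the fold threshold, and 1 to 3 with 1 library left out. For the mean of both it was 1, 2 after quantile normalization and 8 without the fold threshold. Apart from leaving 1 library out, the settings gave log2 differences of 0.9471 to 1.0825 for Cdkn1a with RBCs. The adjusted p was at most 0.00156 by limma, so Cdkn1a was also called at 2-fold in at least 1 of them. The cause was not tested, other than the removal of the fold threshold itself. With replicate numbers as a block, the counts at an adjusted p under 0.05 were 5, 6 and 8, as without it. The deviations of same-numbered libraries correlated across genes at -0.067 to 0.0954. With 2 libraries per group, this cannot show whether same-numbered libraries share an animal or a culture.

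A change of sign occurred in 34 values, over 16 of 70 single-gene results, none at an adjusted p under 0.05. Scaling to the same median gave -0.0155 for Mdm2 in the mean RBC effect, and for Trp53 in LSK cells minus HSCs it gave -0.0046 without RBCs and -0.0363 over both cultures. Quantile normalization gave 0.0854 for Trp53 in LSK cells minus HSCs with RBCs, and a pseudocount of 0.1 gave 0.005 for Zmat3 in the RBC effect in HSCs. With 1 library left out, the log2 values of the results that changed sign ranged as follows. The RBC effect in HSCs was -0.0761 to 0.1078 for Cdkn1a, -0.2755 to 0.2542 for Zmat3, -0.3869 to 0.0832 for Eda2r and -0.1537 to 0.1 for Aen. In LSK cells it was -0.0245 to 0.1756 for Ccng1 and -0.2696 to 0.2357 for Eda2r, and the mean of both was -0.0268 to 0.0367 for Mdm2, -0.0684 to 0.1964 for Zmat3, -0.2107 to 0.0419 for Eda2r and -0.0351 to 0.1728 for Trp53inp1. The interaction was -0.4141 to 0.1156 for Zmat3 and -0.3876 to 0.1177 for Eda2r. LSK cells minus HSCs gave -0.0042 to 0.0578 for Trp53 without RBCs, -0.0583 to 0.0109 for Trp53 and -0.0517 to 0.2019 for Aen with RBCs and -0.0158 to 0.0189 for Trp53 over both. With a filter of 5 FPKM, Zmat3 was not tested.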

Other observations

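The 13 cell cycle genes that are lowered through p21 and DREAM had opposite medians in the RBC comparisons. In HSCs their median log2 fold change upon coculture was 0.16 and 12 of 13 were above 0, with no gene at an adjusted p under 0.05 (limma). Plk1, the mitotic kinase, had the largest, 0.37 ± 0.11 (adjusted p = 0.14 by limma), with 19.5 and 16.9 FPKM alone and 23.8 and 23.8 in coculture. In LSK cells the median was -0.20 and 11 of 13 were below 0, and Mcm5 passed at -0.46 ± 0.096 (adjusted p = 0.036 by limma, and under 0.05 in 8 of 18 alternatives). All 13 interaction terms were above 0, with a median of 0.27, and none passed. The lowest adjusted p was that of Mcm5, at 0.142 by limma. Over all tested genes the medians were -0.0062 in HSCs, -0.0095 in LSK cells and 0.0013 for the interaction. The share of all tested genes above or below 0 was not counted. Genes of the same process are not separate observations, so the counts of signs carry little weight. A part of p21 or DREAM in these values was not tested. The list was not tested as a set. Cdkn1a was at 0.02 ± 0.078 on the log2 scale in HSCs and at 0.13 ± 0.078 in LSK cells (adjusted p = 0.421 by limma).

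Some genes of the lists are given here by their RBC effects. Gdf15 was at 4.19 and 8.43 FPKM in HSCs alone and 8.65 and 12.3 in coculture. In LSK cells it was at 12.8 and 14.5 alone and 24.1 and 24.1 in coculture. Neither effect passed alone (0.70 ± 0.25 with adjusted p = 0.247 and 0.77 ± 0.25 with adjusted p = 0.143, by limma), whereas their mean did (0.74, adjusted p = 0.0477 by limma), in 3 of 17 alternatives as well. The carnitine palmitoyltransferase gene Cpt1c was at -0.75 ± 0.18 on the log2 scale upon coculture of HSCs (adjusted p = 0.0793 by limma), with 5.89 and 5.68 FPKM alone and 2.65 and 3.46 in coculture. In the list of p53 regulators, the kinase gene Hipk2 was at 0.92 ± 0.25 upon coculture of LSK cells (adjusted p = 0.0875 by limma). It was at 3.53 and 5.66 FPKM in LSK cells alone and 9.47 and 9.29 in coculture, and at 7.28 to 11.6 in the HSC libraries. Among other effects that did not pass, Fas was at -0.73 ± 0.22 upon coculture of LSK cells (adjusted p = 0.12 by limma). Upon coculture of HSCs, Dram1 was at -0.61 ± 0.17 (adjusted p = 0.13 by limma) and Ddit4 at 0.66 ± 0.21 (adjusted p = 0.171 by limma).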
